A study of Rattus norvegicus with 6 samples.

Results

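Long non-coding RNA (lncRNA) genes with abundant transcripts were compared between livers of animals fed a high-fat diet and livers of animals that also received HTG. A gene was taken when the deposited table gave its transcript type as lncRNA alone and its estimated count averaged at least 500 over the 6 libraries. That rule left out 10 well known symbols (Neat1, Malat1, Gas5, Snhg1, Snhg5, Snhg8, Snhg12, Kcnq1ot1, H19 and Meg3), of which only Neat1, Malat1 and Snhg12 met the other conditions. This left 151 genes of the 32930 in the table and of its 5572 lncRNA genes. A gene symbol was given for 130 of them, 15 with a lasting symbol and 115 with a provisional one (Gm number, Rik or clone name), and 21 carried an Ensembl identifier only. Mean counts ran from 500.5 to 53863 with a median of 827.

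The Huazhuo Tiaozhi granule (HTG) is a herbal formula studied against dyslipidaemia. The HFD group (3 libraries) received the diet with a 0.5% CMC-Na vehicle, the HTG group (3 libraries) received the same diet with HTG, and the intervention lasted 12 weeks according to the labels, so both groups carried the diet. Poly(A)-selected liver RNA was sequenced. The labels name rats (and spell the treatment HCG), the paper's sequencing methods name C57BL/6 J mice, and the rows are mouse Ensembl genes, which is how they were read. The labels speak of 6 animals in 2 groups without tying a library to an animal, so p-values measure the spread between these samples only.

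lncRNAs are transcripts, often spliced and polyadenylated, that are not known to be translated into a long protein. Many are made in the nucleus from the strand opposite a coding gene or from a shared promoter, some host microRNAs or small nucleolar RNAs (snoRNAs) in their introns, and some hold proteins or microRNAs away from other targets. Most are less abundant than mRNAs, and in liver a large part has no assigned function.

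The libraries held between 50648778 and 90563477 counts. Small values stepped by about 4 counts, which puts the depth at 12662194 to 22640869 fragments, and the limit of an empty gene, 3 fragments, was 12 counts or 0.123 to 0.256 CPM (counts scaled to a common library size by edgeR's TMM method). This limit covers counting error only. Summed hepatocyte markers (12 genes, among them Alb, Ttr and Cps1) reached 106387 to 118729 CPM in HFD and 99861 to 111059 CPM in HTG, a sum of which Alb was the largest part in every library. Of the 12, Tat, Cps1 and Ass1 were lower (log2 fold changes of -1.32, -1.62 and -1.14) and Apoa1 was higher (1.24), and the median was -0.47. Their part in the results was not tested. Summed Kupffer cell and macrophage markers (10 genes, 1 lower in HTG) were at 1033 to 1796 CPM in HFD and 723 to 1319 CPM in HTG. No marker on the lists for sinusoidal endothelium, stellate cells, bile ducts, lymphocytes or red cells was called higher or lower by the thresholds given below. Of 4 pancreatic genes found, Ctrb1, Pnlip and Prss2 were at or under the empty limit in every library, while Cela1 was at 4.57 to 8.06 CPM. In bulk tissue, fewer cells of a type and less RNA per cell cannot be told apart.

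Abundant lncRNA genes were mostly higher in the HTG libraries. Of the 151 genes, 130 had a positive log2 fold change (86.1%), against 51.6% of the 18455 genes tested, and the median was 0.82 against 0.03. A gene was called when its unadjusted p in edgeR's quasi-likelihood test was under 0.05 and its log2 fold change was over 1 or under -1, thresholds read off the lines of the study's volcano plot, since its text states none for these data. By these, 48 of the 151 were higher and 2 were lower, where 4.97% of all genes tested were higher and 3.88% were lower. Of the 48, 35 were among 60 genes that reached the mean of 500 through the HTG libraries alone, so the choice of genes itself favoured higher calls, and nothing is read from that contrast for them. Of the 2 lower, 1 was among 6 genes that reached the mean of 500 through the HFD libraries alone. Among the 85 genes that reached 500 in both groups, 13 were higher and 1 was lower, with a median log2 fold change of 0.57. The called higher genes had log2 fold changes from 1.01 to 4.93 with a median of 1.34.

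The strength of the single calls was limited. The Benjamini-Hochberg adjusted p over all genes tested was between 0.040 and 0.20 for the 48 higher genes. At an adjusted p under 0.1, edgeR called 48 higher and 4 lower, where the background was 5.41% and 5.43%. At an adjusted p under 0.05 it called 1 of the 151, ENSMUSG00000121092, where the background was 2 genes or 0.0108%. DESeq2 called 50 higher and 4 lower at that same level, against 4.83% and 6.06% of the genes it tested. Of the 48 genes called by the thresholds, 26 were called again in each of 6 fits that left out 1 library. All these counts of higher genes include genes that reached 500 through HTG alone, so the choice of genes favoured them. At an adjusted p under 0.1 in edgeR, such genes were 32 of the 48 higher. The 85 genes at 500 in both groups gave 16 higher and 3 lower at that level.

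The median log2 fold change was 0.82 in both named and unnamed genes, with 42 higher and 1 lower among the 130 named genes and 6 higher and 1 lower among the 21 unnamed genes. This likeness held for that choice of genes: with a mean of 500 in each group the medians were 0.60 for named and 0.29 for unnamed genes, with a mean of 500 in HFD alone 0.55 and 0.26, and with a mean of at least 1000 they were 0.77 and 0.31. Among the 15 with a lasting symbol the median was 0.52, with 3 higher and 0 lower. The 3 HTG libraries lay above the 3 HFD libraries without overlap in 73 of the 151 genes and below them in 4, where the background was 16.5% and 15.5%. Of those 73, 38 had reached 500 through HTG alone. Among the 85 genes at 500 in both groups, 35 lay above and 3 below. The difference between the classes was not tested.

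**Figure D1:**
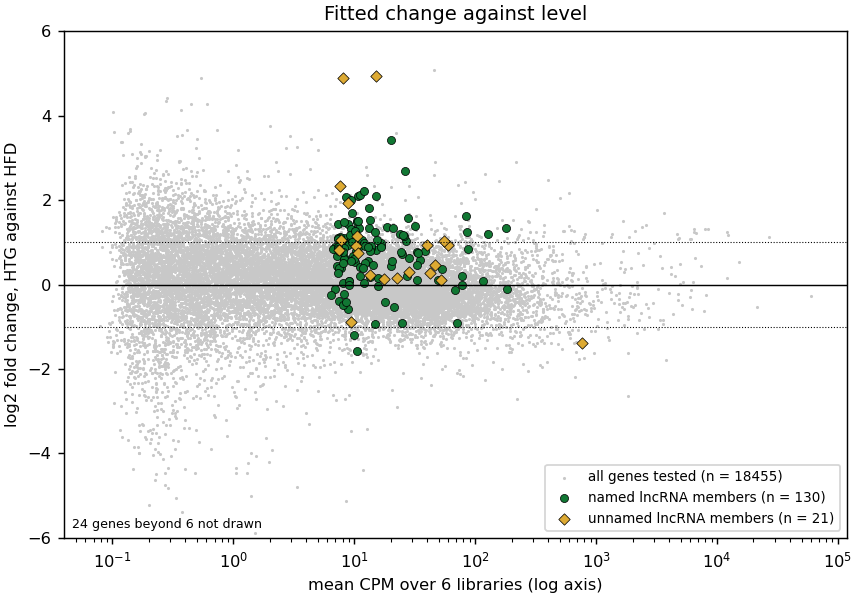
Log2 fold change of HTG against HFD (y axis) against the mean CPM over the 6 libraries (x axis, log scale) for all 18455 genes tested (grey), the 130 named lncRNA genes (circles) and the 21 unnamed ones (diamonds). Dotted lines mark log2 fold changes of -1 and 1. Most lncRNA genes lie above 0, and 2 unnamed genes at 4.89 and 4.93 lie farthest from it.

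The choice of genes bears on these counts. Because the mean was taken over both groups, 60 genes reached 500 through the HTG libraries alone and 6 through the HFD libraries alone, while 85 reached it in both. When lncRNA genes were instead chosen by a mean of 500 in the HFD libraries, 96 qualified, of which 13 were higher and 2 lower, and their median was 0.46. Just inside the threshold were Hectd2os with a mean of 500.5, 2900005J15Rik with 500.8 and 4930481A15Rik with 503.3 counts. Just outside were ENSMUSG00000120166 with 496.8, ENSMUSG00000120162 with 490.8 and D030055H07Rik with 489.0.

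lncRNA genes under the threshold moved in the same direction. Of the 1765 tested with a mean under 500 counts, 231 were higher and 13 were lower, and the median was 0.63. It was 0.62 for means of 250 to 500, 0.71 for 100 to 250, 0.59 for 50 to 100 and 0.63 under 50. Rows of the type TEC (transcripts still to be experimentally shown) had a median of 0.58 and genes listed as lncRNA beside another type one of 0.64. Protein-coding genes with a mean of at least 500 had a median of -0.08 and processed pseudogenes one of -0.02. Of the 10 symbols left out by the rule, 1 was called, Neat1 at 1.77, and their median was 0.47.

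**Figure D2:**
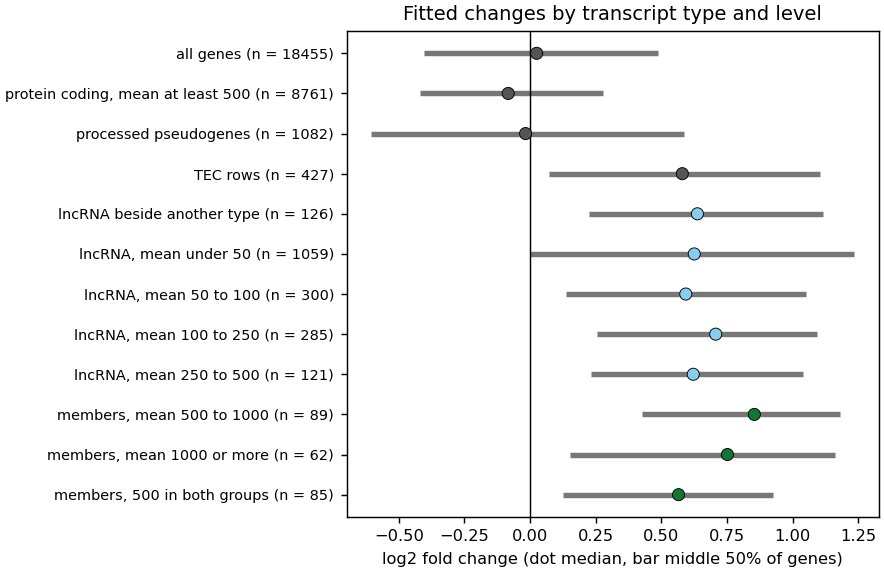
Log2 fold change of HTG against HFD (x axis) by transcript type and mean count (y axis, with the number of genes tested), where dots are medians and bars hold the middle 50% of genes. Every lncRNA and TEC class has a median between 0.57 and 0.85, while those of all genes, protein-coding genes and processed pseudogenes lie between -0.08 and 0.03.

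The HTG libraries did not contribute alike. HTG 1 was above every HFD library in 86 of the 151 genes, HTG 2 in 108 and HTG 3 in 111. The highest value of the 6 fell in HTG 2 for 65 genes, in HTG 3 for 47 and in HTG 1 for 14, against 6, 12 and 7 in HFD 1, 2 and 3. Relative to the HFD mean, the median gene was 0.43 higher on the log2 scale in HTG 1, 0.87 in HTG 2 and 0.75 in HTG 3. HTG 1 thus stood nearest to the HFD libraries.

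As a share of each library, the 151 genes took 0.380%, 0.385% and 0.349% of counts in HFD 1, 2 and 3 and 0.392%, 0.517% and 0.444% in HTG 1, 2 and 3. The 130 named genes took 0.246%, 0.215% and 0.212% in HFD and 0.276%, 0.426% and 0.350% in HTG, so each HTG library was above each HFD library. The single most abundant gene, the unnamed ENSMUSG00000121068, went the other way, with 0.0961%, 0.134% and 0.101% in HFD and 0.0641%, 0.0308% and 0.0318% in HTG. The other 20 unnamed genes took 0.0371%, 0.0353% and 0.0360% in HFD and 0.0521%, 0.0611% and 0.0623% in HTG. The choice of genes favoured higher HTG shares for these and for the named genes.

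Other library-wide quantities were set beside these shares. Genes of the mitochondrial chromosome took 6.45%, 4.97% and 5.24% of counts in HFD and 9.31%, 15.2% and 13.2% in HTG. The HTG libraries were in the same order as for the named lncRNA genes, and the HFD libraries were not. The summed level of 4 nuclear-retained lncRNAs (Neat1, Malat1, Kcnq1ot1 and Meg3) was 495, 555 and 1060 CPM in HFD and 718, 3305 and 1721 CPM in HTG. HFD 3 was thus above HTG 1. Most of the sum was Neat1 (log2 fold change 1.77, the only 1 called) and Malat1 (0.47), and the groups overlapped for both. Without overlap, Kcnq1ot1 was higher (0.97) and Meg3 was lower (-0.95). Their part in the result was not tested.

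**Figure D3:**
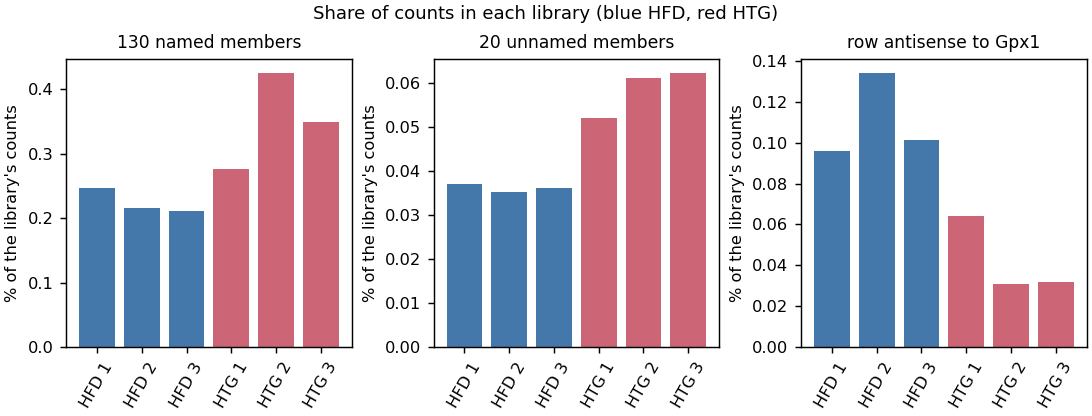
Percent of each library's counts (y axes, starting at 0) taken by the 130 named genes, by the 20 unnamed genes other than the gene antisense to Gpx1, and by that gene. Each panel has 1 bar for each of the 3 HFD libraries (blue) and 3 HTG libraries (red). The first 2 panels are higher in each HTG library than in any HFD library, and the third is lower. The choice of genes favours the direction of the first 2 panels. Reads of Gpx1 and of the gene opposite it cannot be told apart.

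ENSMUSG00000121092 (chromosome 8, 129231424 to 129231957, plus strand, as the table lists it with no build named) was the gene with the smallest p. It was at 2.80, 2.47 and 2.27 CPM in HFD 1, 2 and 3 and at 12.3, 14.1 and 11.7 CPM in HTG 1, 2 and 3. The groups did not overlap, and replicates lay close together (2.52 ± 0.27 against 12.7 ± 1.26 CPM, SD, n = 3). Its mean reached 500 counts through the HTG libraries alone, so the choice of genes favoured a difference in this direction. The fitted log2 fold change in edgeR was 2.34 ± 0.21 (SE) with an adjusted p of 0.040, and it was called in all 6 fits that left out a library. It overlapped no coding gene.

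A pair of further unnamed genes had the widest fitted changes, both from HFD levels close to empty. Both reached the mean of 500 through the HTG libraries alone, so a high HTG level was a condition of their being listed. ENSMUSG00000120841 (chromosome 12, 104044204 to 104045428, plus strand) was at 0.191, 1.06 and 0.334 CPM in HFD, or 13, 71 and 24 counts, and at 22.3, 12.7 and 12.3 CPM in HTG. This was a log2 fold change in edgeR of 4.89 ± 0.62 with an adjusted p of 0.0527. ENSMUSG00000120233 (chromosome 8, 120138782 to 120155735, minus strand) was at 1.01, 0.285 and 1.56 CPM in HFD and at 3.49, 53.5 and 30.5 CPM in HTG. HTG 1 lay much nearer to the HFD libraries than HTG 2 and HTG 3, and the log2 fold change of 4.93 had an SE of 0.98 (edgeR adjusted p = 0.0582).

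The remaining unnamed genes past the thresholds were less separated. Those given here reached the required mean count through the HTG libraries alone, so a high HTG level was a condition of their being listed. ENSMUSG00000119959, which overlaps the LIM-domain gene Lpp by 163 bases on the opposite strand, was at 6.46, 3.90 and 4.93 CPM in HFD and 10.5, 11.3 and 9.80 CPM in HTG, with a log2 fold change of 1.05. Without HFD 2 it was 0.88 and without HTG 2 it was 0.996, each short of the threshold. ENSMUSG00000121083, opposite Tymp (thymidine phosphorylase), was at 4.01, 9.13 and 6.53 CPM in HFD and 23.4, 10.1 and 10.3 CPM in HTG. The log2 fold change of 1.16 was 0.60 without HTG 1, the highest library, and 0.90 without HFD 1. The call was lost in both cases, as it was without HFD 3 (1.15, edgeR unadjusted p = 0.0534) and with a replicate block (1.09, edgeR unadjusted p = 0.0590). ENSMUSG00000120725 ran from 0.915 to 7.78 CPM in HFD and from 7.53 to 17.7 CPM in HTG, so the groups overlapped, and its log2 fold change was 1.93 with an SE of 0.69 (edgeR adjusted p = 0.136). It was 3.11 without HFD 1, and the call was lost without HFD 3, HTG 2 or HTG 3 (edgeR unadjusted p = 0.0750, 0.0598 and 0.0601).

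The 6 named genes past the thresholds with the smallest p all had a provisional symbol and are described by position only. C730036E19Rik (chromosome 1, 151013785 to 151018096, plus strand) was at 17.2, 13.3 and 11.5 CPM in HFD and 43.2, 45.3 and 37.3 CPM in HTG. Its mean was 2.99-fold higher, with a log2 fold change of 1.58 ± 0.19 and an adjusted p of 0.0527 in edgeR. Gm12940 was at 6.37, 5.37 and 4.66 CPM in HFD and 12.3, 18.5 and 16.1 CPM in HTG (log2 fold change 1.52 ± 0.22). Both genes overlap no other gene, and each HTG library was above each HFD library in both. Gm12940 reached the required mean count through the HTG libraries alone, so the choice of genes favoured its higher call.

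Gm12992, on the strand opposite the splicing factor gene Srsf4, was at 7.03, 5.56 and 4.04 CPM in HFD and 14.8, 15.2 and 16.7 CPM in HTG (log2 fold change 1.49 ± 0.23). Srsf4 itself had a log2 fold change of 0.23. 2900076A07Rik, whose span holds the microRNA gene Mir1839 and a scaRNA gene (a small RNA that guides modification of spliceosomal RNAs), was at 3.99, 4.83 and 5.67 CPM in HFD and 10.9, 12.8 and 15.2 CPM in HTG (log2 fold change 1.43 ± 0.23). Both were called in all 6 fits that left out a library. Gm12992 and 2900076A07Rik reached the required mean count through the HTG libraries alone, so the choice of genes favoured a difference in this direction.

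2810410L24Rik was at 8.25, 6.75 and 5.74 CPM in HFD and 15.4, 26.6 and 18.1 CPM in HTG (log2 fold change 1.53 ± 0.25). It reached the required mean count through the HTG libraries alone, so the choice of genes favoured its higher call. 9030622O22Rik was at 8.54, 11.1 and 11.9 CPM in HFD and 23.9, 35.1 and 21.9 CPM in HTG (log2 fold change 1.36 ± 0.23). HTG 2 was the highest library for both, and the adjusted p of each was 0.0538 in edgeR, as it was for Gm12940, Gm12992 and 2900076A07Rik.

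Few genes had a known role. Snhg20 (chromosome 11, 116966834 to 116969790, plus strand), a small RNA host gene whose span holds Mir6516 and a scaRNA gene, was at 8.60, 8.01 and 5.97 CPM in HFD and 15.6, 24.6 and 17.4 CPM in HTG. The difference was 1.35 ± 0.24 on the log2 scale (edgeR adjusted p = 0.0542). Firre (chromosome X, 49644621 to 49724198, minus strand), a nuclear lncRNA that helps organise chromatin, was at 56.2, 36.4 and 61.3 CPM in HFD and 82.3, 146 and 135 CPM in HTG. The difference was 1.24 ± 0.28 on the log2 scale (edgeR adjusted p = 0.0613). Neither gene's groups overlapped, and both were called in all 6 fits that left out a library.

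Norad (chromosome 2, 156229980 to 156234921, minus strand), a cytoplasmic lncRNA that binds Pumilio proteins, went the other way. It was at 85.2, 110 and 81.3 CPM in HFD and 55.3, 39.7 and 52.0 CPM in HTG, without overlap. Its log2 fold change of -0.91 ± 0.20 was short of the fold threshold, with an unadjusted p of 0.00191 and an adjusted p of 0.0612 in edgeR. Without HTG 1 the log2 fold change was -1.05.

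Other genes with known roles stayed short of the thresholds. Oip5os1, also called Cyrano and known to promote the decay of the microRNA miR-7, was at 52.2, 43.6 and 47.1 CPM in HFD and 43.1, 50.4 and 59.4 CPM in HTG, and the groups overlapped (log2 fold change 0.10, SE 0.18). Mir22hg, the host of miR-22, was at 44.9, 67.2 and 27.4 CPM in HFD and 54.8, 68.5 and 55.5 CPM in HTG (log2 fold change 0.36, SE 0.30), and the value was 0.72 without HFD 2 and 0.08 without HFD 3. Fendrr, known from heart and body wall development, was at 7.30, 11.9 and 4.66 CPM in HFD and 11.4, 12.8 and 11.9 CPM in HTG. Its log2 fold change was 0.60 with all libraries, 1.01 without HFD 2 and 0.32 without HFD 3. AW112010, a transcript of immune cells, was at 81.5, 66.6 and 65.1 CPM in HFD and 87.1, 47.4 and 59.7 CPM in HTG, with a log2 fold change of -0.13 and an SE of 0.24. Without HTG 2 it was 0.047, and that of Oip5os1 was -0.023 without HTG 3.

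The same roles were followed over lists of lncRNA genes of any level, to be read against 4.97% higher and 3.88% lower among all genes tested. Nearer to these lists are the 1765 lncRNA genes tested with a mean under 500. Of those, 13.1% were higher and 0.737% lower, with a median log2 fold change of 0.63. Whether any list differs from lncRNA genes at large was not tested. Among other snoRNA hosts, 2 of 14 tested were higher (Snhg20 and Dancr) and the median log2 fold change was 0.52. Among microRNA hosts, 3 of 11 were higher (Dnm3os, Mir142hg and Mir99ahg) with a median of 0.87. Among X-linked lncRNAs, 2 of 4 were higher (Firre and Ftx), and none of 3 imprinted ones was called. Of 9 widely expressed lncRNAs 0 were higher and 1 was lower (Miat), and of 4 lncRNAs beside genes of liver transcription factors 1 was higher (Hnf1aos1).

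**Figure D4:**
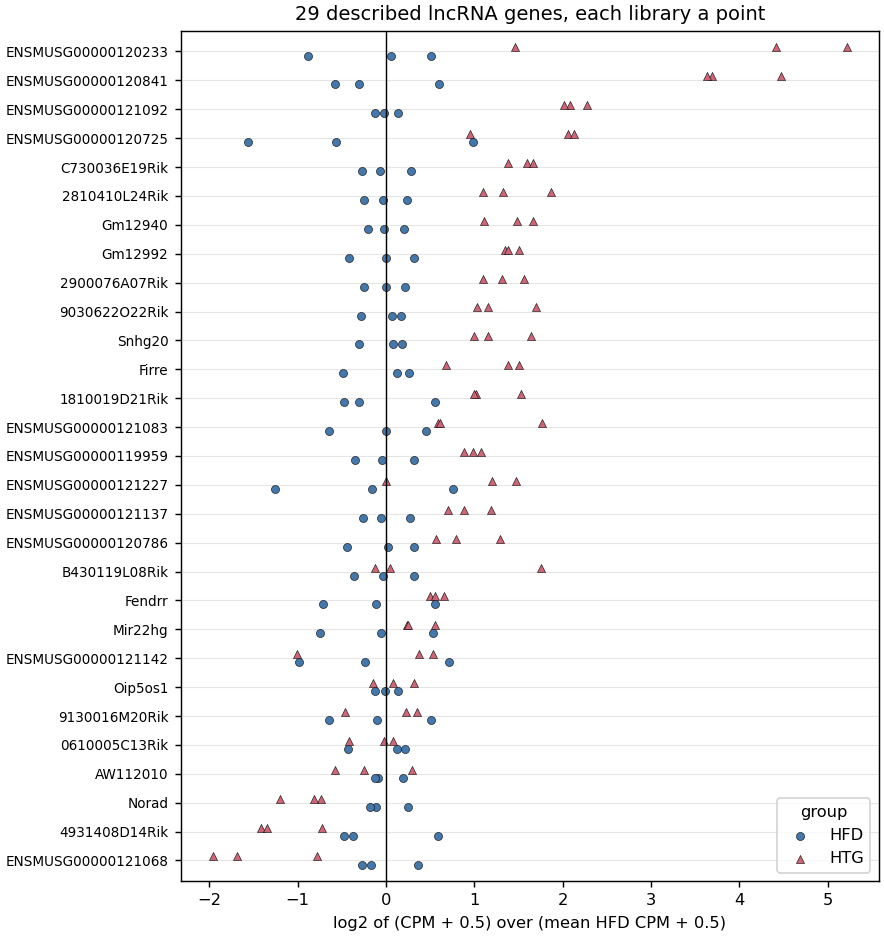
Log2 of each library's CPM plus 0.5 over the mean HFD CPM plus 0.5 (x axis) for the 29 genes chosen for description by rule (y axis, ordered by fitted change), with HFD libraries as circles and HTG libraries as triangles. The groups are apart for C730036E19Rik, Gm12992, Snhg20 and Firre, and they overlap for Oip5os1, Mir22hg, AW112010 and 9130016M20Rik.

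Many of these genes share their place with a coding gene. Of the 151, 59 overlap a coding gene on the opposite strand, 7 on the same strand and 1 on both, and 14 more start within 1000 bases of the start of a coding gene on the opposite strand (divergent genes). The table gives whole gene spans, so exons and introns were not told apart. How the counting treated strand is not stated, so for such pairs the reads of the partners cannot be told apart. Genes with none of these positions numbered 70, of which 27 were higher and 1 lower with a median log2 fold change of 0.90. Those opposite a coding gene had 18 higher and 1 lower, with a median of 0.73, and the 14 divergent ones had 2 higher and a median of 0.83. Among all genes tested, 4.97% were higher and 3.88% were lower. The counts by position include genes that reached 500 through HTG alone, which were 35 of the 48 higher. The choice of genes thus favoured higher calls, and differences between positions were not tested.

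Over 75 pairs, the median log2 fold change was 0.73 for the lncRNA gene and -0.0039 for the coding gene, and 5 coding genes were higher and 1 lower, near the shares of all genes tested (4.97% and 3.88%). The lncRNA genes were chosen by a level that favoured higher calls, and the coding genes by position only. Nothing is read from the contrast between their medians. In 20 pairs the lncRNA gene was higher, and in 3 of these the coding gene was higher too, while in 1 it was lower. Gm45470 and the beta-3 adrenergic receptor gene Adrb3 were one pair higher together, with log2 fold changes of 1.50 and 2.31. Adrb3 was at 7.33, 6.00 and 6.75 CPM in HFD and 18.2, 41.3 and 40.5 CPM in HTG.

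In the other 2 such pairs the coding gene was scarce. Both lncRNA genes reached the required mean count through the HTG libraries alone, so the choice of genes favoured their higher calls. 1810064F22Rik had a log2 fold change of 2.10 and the zinc finger gene Zfp872 one of 2.70, from 0.33 to 0.961 CPM in HFD and 1.48 to 6.92 CPM in HTG. Gm15998, opposite the ephrin gene Efna3, was at 3.45, 3.49 and 3.36 CPM in HFD and at 4.74, 26.3 and 79.9 CPM in HTG. The HFD libraries lay together and the HTG libraries spread 16.9-fold, with HTG 1 near HFD, at a log2 fold change of 3.43 ± 0.83. In each library the lncRNA gene held 82.3% to 92.5% of the counts of the pair with Efna3, whose own log2 fold change was 3.51.

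Gm15832 lies on the same strand as Rnf149, a ubiquitin ligase gene, and the partners went apart. Gm15832 was at 5.45, 5.80 and 4.32 CPM in HFD and 9.64, 11.5 and 12.4 CPM in HTG (log2 fold change 1.11 ± 0.21). Rnf149 was at 45.9, 51.9 and 58.1 CPM in HFD and 29.3, 15.8 and 21.3 CPM in HTG (log2 fold change -1.23 ± 0.24). Gm15832's share of the pair thus went from 6.92% to 10.6% in HFD to 24.7% to 42.2% in HTG. Gm15832 reached the required mean count through the HTG libraries alone and was chosen after its values were seen. The choice thus favoured its rise, and nothing is read from its contrast with Rnf149.

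**Figure D5:**
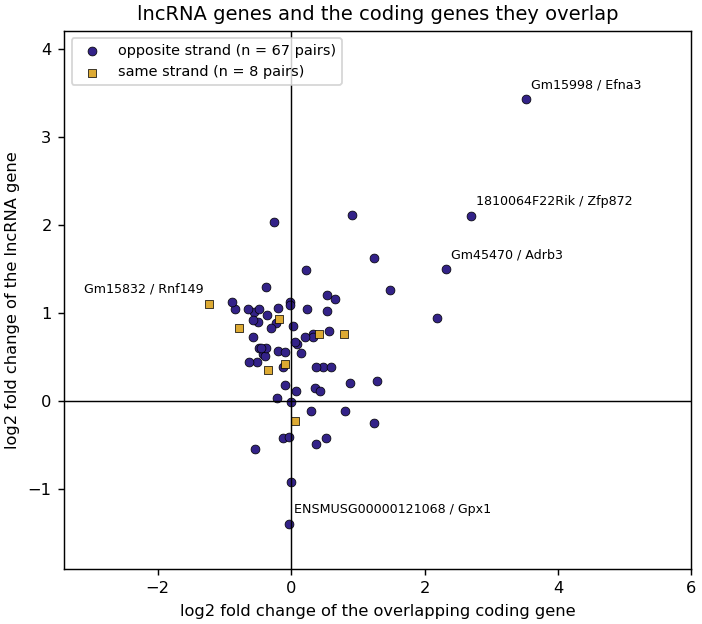
Log2 fold change of the lncRNA gene (y axis) against that of the coding gene it overlaps (x axis), HTG against HFD, for 67 pairs on opposite strands (circles) and 8 pairs on the same strand (squares). Most pairs lie above 0 on the y axis and on both sides of 0 on the x axis, and the gene opposite Gpx1 lies lowest. The choice of lncRNA genes favours values above 0 on the y axis.

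ENSMUSG00000121068 (chromosome 9, 108216011 to 108217311, minus strand) was the most abundant gene of the set and 1 of the 2 lower ones. It overlaps 1210 bases of Gpx1, the cytosolic glutathione peroxidase gene, on the opposite strand. It was at 922, 1428 and 986 CPM in HFD and at 646, 285 and 344 CPM in HTG, without overlap. The fitted log2 fold change was -1.39 ± 0.35 with an adjusted p of 0.0684 in edgeR, called in all 6 fits that left out a library. Gpx1 was at 499, 787 and 355 CPM in HFD and 681, 450 and 474 CPM in HTG, with overlap and a log2 fold change of -0.03. The lncRNA gene held 64.9%, 64.5% and 73.5% of the pair's counts in HFD and 48.7%, 38.8% and 42.0% in HTG. How the counting treated strand is not stated, so this split and the gene's level are uncertain. Its level per length was 819 ± 152 FPKM (fragments scaled by transcript length and library size) in HFD and 305 ± 137 FPKM in HTG (SD, n = 3), the highest of the set, where the median gene had 4.05 FPKM.

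4931408D14Rik was the other lower gene, at 10.6, 21.2 and 9.84 CPM in HFD and 4.89, 5.15 and 8.18 CPM in HTG. HFD 2 was far above the rest, and the log2 fold change was -1.19 with all libraries (edgeR adjusted p = 0.0924) and -0.76 without HFD 2, short of the threshold. The gene reached the required mean count through the HFD libraries alone, so the choice of genes favoured its lower call.

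Other genes that are abundant per length lie opposite coding genes. 1810019D21Rik, opposite the epithelial splicing regulator gene Esrp2, was at 115, 63.1 and 55.9 CPM in HFD and 159, 225 and 156 CPM in HTG, without overlap, at a log2 fold change of 1.21 ± 0.31 (edgeR adjusted p = 0.0702). Esrp2 had a log2 fold change of 0.54. 0610005C13Rik, opposite Bcat2 (the mitochondrial branched-chain aminotransferase), was at 221, 207 and 140 CPM in HFD and 186, 200 and 142 CPM in HTG, and the groups overlapped. Bcat2 was at 37.3, 29.7 and 34.7 CPM in HFD and 52.2, 76.3 and 48.8 CPM in HTG, a log2 fold change of 0.80 with an unadjusted p of 0.00516 and an adjusted p of 0.0777 in edgeR, short of the fold threshold.

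ENSMUSG00000121227, opposite Lrg1 (a secreted acute-phase glycoprotein), varied widely in both groups. It was at 32.4, 61.6 and 14.9 CPM in HFD and 83.8, 36.3 and 102 CPM in HTG, and Lrg1 was at 1286, 1808 and 827 CPM in HFD and 2325, 804 and 2559 CPM in HTG. Both had HFD 3 lowest among the HFD libraries and HTG 2 lowest among the HTG libraries, and the lncRNA gene held 1.77% to 4.33% of the pair. Its log2 fold change was 1.03 with an unadjusted p of 0.0836 in edgeR, and it passed the thresholds in DESeq2 and, in edgeR, without HFD 2 (1.64) or HTG 2 (1.35). Without HFD 3 the value was 0.65.

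B430119L08Rik, inside the alpha-1-antitrypsin gene Serpina1c on the other strand, was at 77.7, 60.8 and 48.5 CPM in HFD and 64.4, 212 and 57.3 CPM in HTG. HTG 2 stood alone, and the log2 fold change of 0.83 (SE 0.48) was -0.036 without HTG 2. Without HTG 3 it was 1.15 and past the thresholds. ENSMUSG00000121142, opposite the rod transducin gene Gnat1, ran from 25.1 to 82.9 CPM in HFD and from 24.7 to 72.8 CPM in HTG, which overlapped almost wholly. 9130016M20Rik, which overlaps no gene, was at 106, 163 and 72.7 CPM in HFD and 145, 133 and 82.7 CPM in HTG, with a log2 fold change of 0.08 (SE 0.33). The sign of this value, of that of ENSMUSG00000121142 and of that of 0610005C13Rik turned when single libraries were left out.

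A pair of unnamed genes of high level per length were higher but under the fold threshold. ENSMUSG00000121137 spans the amino acid transporter gene Slc7a15 on the other strand and was at 49.5, 39.3 and 34.1 CPM in HFD and 67.0, 75.8 and 94.2 CPM in HTG. Its log2 fold change was 0.95 ± 0.21 (edgeR adjusted p = 0.0612), and Slc7a15 was at no more than 0.558 CPM in HFD and 3.14 CPM in HTG. ENSMUSG00000120786, on the strand of the kynurenine aminotransferase gene Kyat3, was at 20.1, 28.1 and 34.5 CPM in HFD and 41.1, 48.0 and 68.4 CPM in HTG, at 0.93 ± 0.26. The groups of both were apart, and Kyat3 had a log2 fold change of -0.18. ENSMUSG00000121137 passed the thresholds without HFD 1 (1.10) or HTG 1 (1.01), and ENSMUSG00000120786 without HFD 3 (1.12) or HTG 1 (1.03).

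Spread between libraries of 1 group was wide for a part of the set. The ratio of the highest to the lowest library had a median of 1.77 within HFD and 1.67 within HTG, and it exceeded 4 for 17 genes in HFD and 16 in HTG. Gm42047 and Gm4673 were picked from these after their values were seen. Gm42047 was at 65.4, 147 and 93.0 CPM in HFD and 42.8, 505 and 226 CPM in HTG, so the group means differed 2.53-fold while HTG 1 was the lowest of the 6. Gm4673, opposite Lsr (the lipolysis-stimulated lipoprotein receptor gene), was at 24.5, 23.4 and 35.3 CPM in HFD and at 46.8, 66.3 and 0.470 CPM in HTG, and its log2 fold change of 0.45 had an SE of 1.07.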

How the data were processed

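Liver RNA from 3 HFD and 3 HTG libraries was grouped by the labels, and no column was left unmapped. For each gene the authors deposited whole-number estimated counts that carry no scaling between libraries. FPKM values, scaled by transcript length and library size, were deposited beside them. The submitters' processing notes name HISAT2, SAMtools, StringTie and the rat build mRatBN7.2, without versions, while the gene rows are mouse Ensembl genes, so positions are those of the table, with no build named. The paper describes strand-marked libraries from poly(A) RNA and the labels name the NEBNext Ultra RNA kit, and the strand setting of the counting is not given in the sources used here.

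Counts were tested in R 4.3.3 by the quasi-likelihood functions glmQLFit and glmQLFTest of edgeR 4.0.16 over the whole table, after filterByExpr and TMM scaling, with group as the only term. All 151 genes passed the filter, as did 18455 of 32930 in all. A value with ± is a mean and SD over 3 libraries where said, and otherwise a log2 fold change and its SE. An exact permutation test of 3 libraries against 3 cannot go below p = 0.1. Calls used an unadjusted p under 0.05 with an absolute log2 fold change over 1, the lines of the study's volcano plot.

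The genes described were those with an adjusted p under 0.05, the 6 with the smallest p among called genes per direction and naming class, the 5 of highest mean FPKM per class, and those on lists of known lncRNAs, which gave 29 genes. The 3 on each side of the threshold of 500 are given with their means only. The genes and lists were chosen with earlier results of these data known. Coding partners of described genes are named with them. Gm45470, 1810064F22Rik, Gm15998, Gm15832, Gm42047, Gm4673, Erdr1, Gm47283 and Gm45774 were chosen after their values were seen.

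Alternatives were DESeq2 1.42.0, other filters, scalings and thresholds, a replicate block, each library left out, counts divided by 4, limma 3.58.1 on log2(FPKM + 0.1) where the mean FPKM reached 1, and other choices of genes. The scripts were tested on simulated data. No sequence is printed, since mouse sequence was not used here.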

Additional observations from a re-analysis of the deposited data

How the results depend on the processing

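The medians of named and of unnamed genes kept their sign under every alternative run. The count of 48 higher genes was 40 to 54 when 1 library was left out and 43 to 51 under DESeq2, other filters, scalings, counts divided by 4 and limma on FPKM. It was 1 at an adjusted p under 0.05, 13 among genes with a mean of at least 500 in each group, 15 with a mean of at least 1000, 20 among genes overlapping no other gene and 13 with a mean of at least 500 in HFD alone, the last chosen after seeing the data. These smaller counts come from 85, 62, 61 and 96 genes. The count of 2 lower genes was 4 at an adjusted p under 0.1, 0 at one under 0.05 and 1 under each of the first 3 changes of membership. It ran from 1 to 5 when a library was left out (1 without HFD 2, 4 without HFD 3, and 5 without HTG 1 or HTG 3). At an adjusted p under 0.05, DESeq2 called 50 higher and 4 lower.

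The named median of 0.82 was 0.60 with 500 in each group and 0.55 with 500 in HFD alone. The unnamed median of 0.82 was 0.29 with 500 in each group, 0.31 at 1000, 0.60 without overlapping genes and 0.26 with 500 in HFD alone, and it ran from 0.64 to 0.88 when a library was left out, being lowest without HTG 1 and 0.65 without HFD 3. The cause of these moves beyond the smaller lists was not tested.

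With the replicate number as a block, 49 genes were higher and 2 lower. Deviations of same-numbered libraries correlated across genes at -0.13, -0.11 and 0.19, so the numbers did not pair the samples. For the 29 described genes, 386 of 406 alternatives left the call as it was, 10 lost it and 10 gained it. The sign of the log2 fold change turned in 10 alternatives, each leaving out 1 library, over 6 genes that were not called with or without it (B430119L08Rik, AW112010, Oip5os1, 0610005C13Rik, 9130016M20Rik and ENSMUSG00000121142). Counts stepping by 4 limit genes close to empty in 1 group, such as ENSMUSG00000120841 in HFD.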

Other observations

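Some abundant lncRNA genes were set by single libraries, and the genes here were picked after their values were seen. Erdr1, listed on chromosome X, had 485, 358 and 17 counts in HFD 1, 2 and 3 and 5, 15 and 2758 counts in HTG 1, 2 and 3. Gm47283, listed on chromosome Y, had 739, 630 and 51 counts in HFD and 20, 22 and 6366 counts in HTG, so the order of the libraries was close to that of Erdr1, with HTG 3 far above the rest. Neither was called (log2 fold changes of 2.21 and 2.70, with SEs of 1.95 and 1.98). Their placement on the sex chromosomes is as the table lists it.

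Gm45774, opposite the metallothionein gene Mt2, was at 44.6, 46.5 and 32.5 CPM in HFD and 81.9, 19.8 and 280 CPM in HTG. Mt2, which binds zinc and copper, was at 189, 356 and 115 CPM in HFD and 624, 41.0 and 899 CPM in HTG. Both were highest in HTG 3 and lowest in HTG 2, and neither was called (log2 fold changes of 1.63 and 1.25).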
